A study of Mus musculus with 2 samples.

Results

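The Mir9 and Mir124a genes are 2 families of miRNA loci, each with 3 copies in the mouse genome. The 6 members, Mir9-1, Mir9-2, Mir9-3, Mir124a-1, Mir124a-2 and Mir124a-3, were chosen by name from the 2202 miRNA genes counted, and their sense-strand reads are described here. Small RNA was sequenced from the left cerebral cortex, taken from B6CASTF1/J males (hybrids of C57BL/6J and CAST/EiJ) at 2 months of age. The series held 1 group, with no mutant or treatment, and 1 library from each of 2 animals, numbered male 03 (library 1) and male 04 (library 2). The labels also give both animals 1 donor identifier, so their separate origin is given by the animal and replicate numbers alone, and their spread may be technical. The tissue was bulk cortex, in which fewer cells of a type and less RNA per cell cannot be told apart.

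MiRNAs are cut from hairpin precursors and pair with mRNAs mainly through their seed, bases 2 to 8, to lower translation and stability. In brain, miR-9 is made in neural progenitors and in neurons and is known for setting the balance between proliferation and differentiation. MiR-124 is known as a marker of neurons, where it represses genes of other cell types, among them the splicing regulator Ptbp1. Both miRNAs are made from 3 separate loci, so that a read of the mature miRNA alone does not show which locus it came from.

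The mature arms of the Mir9 loci are shown because they are the part that the copies share, and are given 5′ to 3′ with the seed in capitals (RefSeq, GRCm38.p6). The 5p arm is the guide best known in cortex, and the 3p arm comes from the other side of the same hairpin.
mmu-miR-9-5p: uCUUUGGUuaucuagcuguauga
mmu-miR-9-3p: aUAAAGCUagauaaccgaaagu
All 3 Mir9 loci carry both arms letter for letter. No other RefSeq miRNA gene with an arm placed in its hairpin shared either seed.

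The hairpins around these arms are shown because only their loops and flanks differ, and the mature arms are in capitals.
Mir9-1: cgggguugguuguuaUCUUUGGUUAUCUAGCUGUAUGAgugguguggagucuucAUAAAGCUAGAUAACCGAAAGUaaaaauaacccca
Mir9-2: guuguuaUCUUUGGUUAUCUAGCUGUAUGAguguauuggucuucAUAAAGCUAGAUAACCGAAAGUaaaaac
Mir9-3: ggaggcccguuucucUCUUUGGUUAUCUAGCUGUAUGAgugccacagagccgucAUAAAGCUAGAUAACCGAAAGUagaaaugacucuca
Mir9-1 and Mir9-2 were identical at 97.2% of the bases of the shorter hairpin and shared an unbroken stretch of 33 bases. Mir9-3 matched Mir9-1 at 71 of 89 bases (79.8%) and Mir9-2 at 64 of 72 bases (88.9%), again over the shorter hairpin. The higher share with Mir9-2 thus rests on fewer identical bases in a shorter annotated hairpin. The longest stretch of Mir9-3 in common with either was 26 bases. The Mir124a hairpins were identical at 94.1% for Mir124a-1 and Mir124a-2, 97.1% for Mir124a-1 and Mir124a-3, and 98.5% for Mir124a-2 and Mir124a-3. Their longest shared stretches were 31 or 32 bases.

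The loci lie apart, in or beside long non-coding transcripts on their own strand (mm10 coordinates, GENCODE M21). Mir9-1 (ENSMUSG00000106493.1; chr3:88215598-88215686, plus strand) is intronic in the lincRNA Gm3764. Mir9-2 (ENSMUSG00000065424.2; chr13:83738814-83738885, plus strand) lies within an exon of the lincRNA C130071C03Rik. Mir9-3 (ENSMUSG00000093238.1; chr7:79505264-79505353, plus strand) lies in an intron of its host transcript Mir9-3hg. Mice that lack both Mir9-2 and Mir9-3 are known to have defects of cortical development. Mir124a-1 (ENSMUSG00000065597.1; chr14:64590657-64590741, plus strand) lies within an exon of Mir124a-1hg, also called Rncr3, and is known for its part in the survival of retinal cones. Mir124a-2 (ENSMUSG00000093073.1; chr3:17795662-17795770, plus strand) lies in Mir124-2hg, whose exons cover 27 of its 109 bases. Mir124a-3 (ENSMUSG00000065454.2; chr2:180894040-180894107, plus strand) has no annotated host, and the lincRNA Gm27032 begins over its last 3 bases.

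The deposited counts accounted for 11372894 reads in library 1 and 12980686 in library 2, called all reads here. Sense-strand reads in miRNA genes numbered 3827158 and 4553291. Levels are given as CPM, counts per 1000000 of these sense-strand reads. In this layout of counts, a read that aligns at several places enters a tally of its own and is added to no gene. That tally held 4743316 reads in library 1 and 5338530 reads in library 2, or 41.7% and 41.1% of all reads. Which miRNAs those reads came from was not analysed here, so a low count at a member cannot be read as low expression. Intervals of counts, ratios and shares below are exact 95% intervals and cover counting error only, since the reads carry no molecular identifiers and may repeat a molecule.

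Among the Mir9 loci, Mir9-3 held most of the placed reads. Mir9-3 had 202 reads in library 1 (175.1 to 231.9) and 276 in library 2 (244.4 to 310.6), or 52.8 and 60.6 CPM. Its mean of 56.7 ± 5.54 CPM (SD, n = 2) placed it at rank 226 of 2202 genes in library 1 and rank 217 in library 2. Mir9-1 had 52 reads in library 1 (38.8 to 68.2) and 49 in library 2 (36.3 to 64.8), and averaged 12.2 ± 2.00 CPM. Mir9-2 had 7 reads in library 1 (2.81 to 14.4) and 8 in library 2 (3.45 to 15.8), and averaged 1.79 ± 0.0510 CPM. The counting intervals of these 3 loci did not overlap in either library, and the order Mir9-3, Mir9-1, Mir9-2 was the same in both.

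The Mir124a loci were close to the limit of detection, which is 10 reads in both libraries here. Mir124a-1 had 10 reads in library 1 (4.80 to 18.4) and 18 in library 2 (10.7 to 28.4), or 2.61 and 3.95 CPM. Its mean was 3.28 ± 0.948 CPM (SD, n = 2), and it was the only Mir124a locus to reach that minimum. Mir124a-2 had 1 read in library 1 and 7 reads in library 2, averaging 0.899 ± 0.902 CPM. Mir124a-3 had 6 reads in library 1 and 1 read in library 2, averaging 0.894 ± 0.953 CPM. Mir124a-3 was therefore the higher of these in library 1 and Mir124a-2 in library 2, with counting intervals that overlapped in both libraries. In all, 3 of the 6 members (Mir9-1, Mir9-3 and Mir124a-1) reached 10 reads in both libraries, and none was at 0. Of all 2202 genes, 424 reached 10 reads in library 1 and 438 in library 2, while 688 and 685 had any read.

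**Figure D1:**
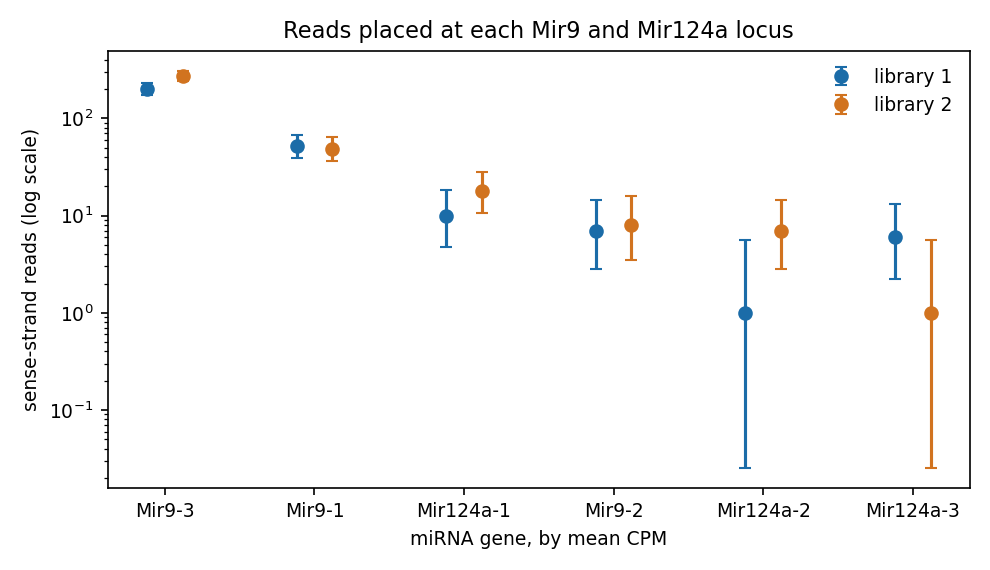
Sense-strand reads at each locus (log axis) in library 1 (left, blue) and library 2 (right, orange), with loci ordered by mean CPM; bars are exact 95% counting intervals. Mir9-3, with 202 and 276 reads, stands above Mir9-1, with 52 and 49, while the other loci have 18 reads or fewer.

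In the order of mean levels, Mir9-3 stood above Mir9-1, then Mir124a-1, Mir9-2, Mir124a-2 and Mir124a-3. Mir9-3 held 3.88 times the reads of Mir9-1 in library 1 (2.85 to 5.38) and 5.63 times in library 2 (4.14 to 7.80). Mir9-1 held 5.20 times the reads of Mir124a-1 in library 1 (2.61 to 11.5) and 2.72 times in library 2 (1.56 to 4.97). These were the 2 steps whose interval lay above 1 in both libraries. The ratio of Mir124a-1 to Mir9-2 was 1.43 (0.491 to 4.42) and 2.25 (0.931 to 5.98), and the intervals of the remaining 2 steps also included 1. The same 2 steps held per 100 annotated bases, at which Mir9-3 stood 3.84-fold and 5.57-fold above Mir9-1 in libraries 1 and 2. On that scale Mir124a-3 came before Mir124a-2.

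Together the Mir9 loci held 261 reads in library 1 and 333 in library 2, a summed level of 70.7 ± 3.49 CPM (SD, n = 2). The Mir124a loci together held 17 and 26 reads, or 5.08 ± 0.897 CPM. Set against the reads mapped to several places, the 6 members held 58.6 placed reads per 1000000 tallied reads in library 1 and 67.2 in library 2. For the Mir9 loci there were 18174 tallied reads for each placed read in library 1 and 16032 in library 2. For the Mir124a loci there were 279019 and 205328. The tally pools all miRNAs and other small RNAs, so these ratios set the scale of what was not placed and measure no miRNA.

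The split of reads over the Mir9 loci was uneven in both libraries. Mir9-3 took 77.4% of the Mir9 reads in library 1 (71.8 to 82.3%) and 82.9% in library 2 (78.4 to 86.8%). Mir9-1 took 19.9% and 14.7%, and Mir9-2 took 2.68% and 2.40%. The share of Mir9-3 did not differ detectably between the libraries (two-sided Fisher's exact test on reads, p = 0.0965, adjusted p = 0.193 over the 2 families). Mir124a-1 took 58.8% of the Mir124a reads in library 1 (32.9 to 81.6%) and 69.2% in library 2 (48.2 to 85.7%), with p = 0.528 and adjusted p = 0.528 by the same exact test. With 17 and 26 reads, that comparison could show only large shifts. In library 1 the interval of the Mir124a-1 share included an even split over the Mir124a loci.

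No member passed the test of library 1 against library 2. Each gene with 10 or more reads in both libraries together was tested for library 1 against library 2 with a two-sided exact binomial test, adjusted by the Benjamini-Hochberg method over all 508 genes tested. This test compares the 2 libraries, not conditions, and allows for counting error only. Of all genes tested, 246 were called (48.4%), whereas 0 of the 4 members with enough reads were called. None of the 4 had an unadjusted p under 0.05, by this test or by the exact test of edgeR, which called 4 of the 508 genes (0.787%). The edgeR test adds a spread between samples. That spread was estimated from the difference between these same 2 libraries, so this test could call few genes and is no separate check. Members with few reads have wide intervals, and their count stands against a background that holds genes of all depths.

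The log2 ratio of library 1 over library 2 was 0.34 for Mir9-1 (-0.25 to 0.93, adjusted p = 0.395 by the exact binomial test). Mir9-3 lay on the other side, at -0.20 (-0.47 to 0.07, exact adjusted p = 0.231). Mir9-2 stood at 0.06 (-1.64 to 1.72) and Mir124a-1 at -0.60 (-1.88 to 0.59). The median size of the log2 ratio was 0.27 over these 4 members and 0.41 over all genes tested. For the summed loci, the log2 ratio was -0.10 for Mir9 (-0.34 to 0.14) and -0.36 for Mir124a (-1.34 to 0.57). The Mir9 sum thus carried the narrowest interval of these values, and the Mir124a sum, with 43 reads in all, a wide one.

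**Figure D2:**
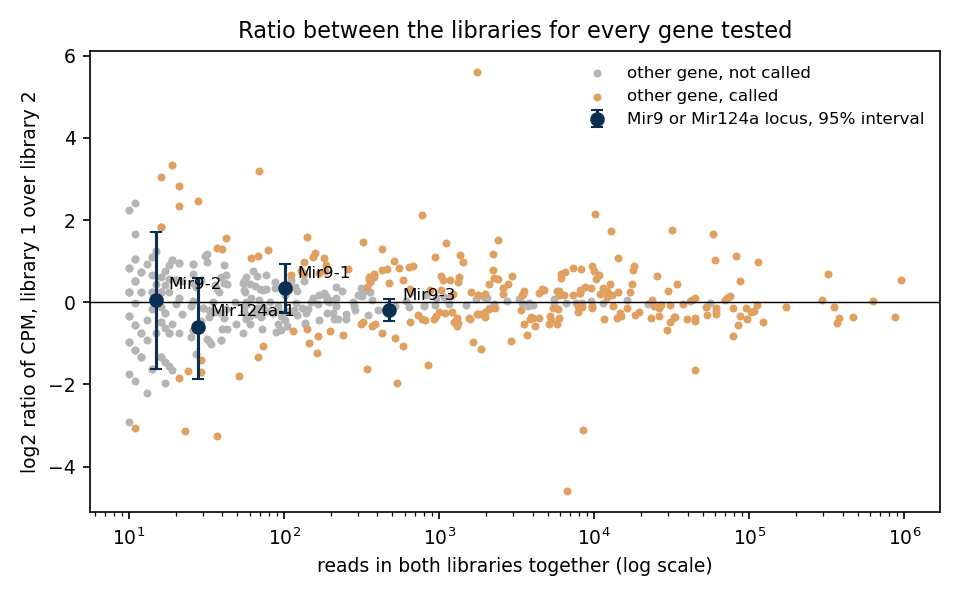
Log2 ratio of CPM in library 1 over library 2 against the reads in both libraries together (log axis) for 507 of the 508 genes tested; 1 gene with no read in 1 library is not drawn. The 4 tested members (dark points with exact 95% intervals) have intervals that include 0, among grey genes not called and orange genes called by the exact binomial test.

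Strand mattered at 1 member. Mir9-1 lies opposite the annotated miRNA gene Gm25641, which spans it on the minus strand. In the column that ignores strand, Mir9-1 had 0 reads in both libraries, against 52 and 49 in the sense-strand column, while Gm25641 had no sense-strand read. The counts of Mir9-2, Mir9-3, Mir124a-1 and Mir124a-2 were the same in both columns. Mir124a-3 gained 1 read, from the opposite strand, in library 1. Apart from that read, no member had a read on its antisense strand.

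How much of each hairpin could be told apart by sequence was measured with windows of 18 to 29 bases, since the labels give a fragment size under 30. A window was counted as single-locus when it occurred, on either strand, in no other annotated miRNA hairpin away from its own locus. Over these lengths, 90.0% of the windows of Mir9-3 were single-locus, against 68.4% for Mir9-1 and 57.6% for Mir9-2. The Mir9 loci thus came in the same order by windows as by reads, which is also their order by annotated length (90, 89 and 72 bases). Mir9-1 and Mir9-2 each had 252 windows found in another annotated transcript, so their shares differed with hairpin length. The Mir124a hairpins came out at 73.7% for Mir124a-2, 71.2% for Mir124a-1 and 62.6% for Mir124a-3. That is not their order by reads, but it is their order by annotated length (109, 85 and 68 bases). At 18 bases the share was 76.7% for Mir9-3 and 41.8% for Mir9-2, and at 27 bases or more every window of Mir9-3 was single-locus. The part these shares play in the counts was not tested, and genome sequence outside annotated transcripts was not searched.

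**Figure D3:**
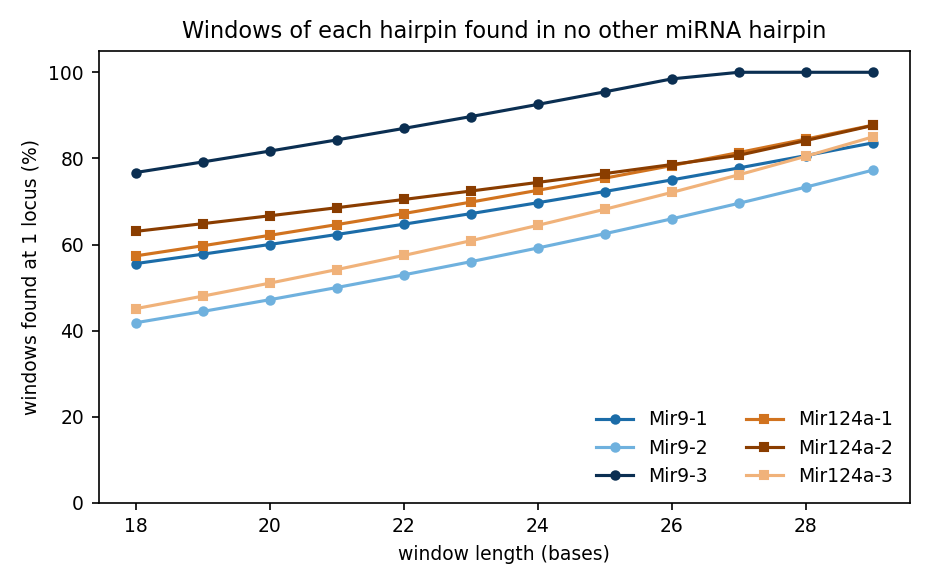
Share of windows of each hairpin found in no other annotated miRNA hairpin (vertical axis, %) against window length in bases, with Mir9 loci in blue and Mir124a loci in orange. Mir9-3 lies highest at every length and reaches 100% at 27 bases, and Mir9-2 lies lowest, at 41.8% for 18 bases and 77.3% for 29 bases.

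At the arms themselves the loci differed in how far a read must run past the mature end. The shortest single-locus reads that begin at the 3p arm start are shown because they differ most between the loci, with the added bases in capitals.
Mir9-1: auaaagcuagauaaccgaaaguAAAAAU
Mir9-2: auaaagcuagauaaccgaaaguAAAAAC
Mir9-3: auaaagcuagauaaccgaaaguAG
A 3p read of Mir9-3 was single-locus at 24 bases, 2 beyond the mature end, whereas Mir9-1 and Mir9-2 needed 28 bases, 6 beyond it. From the 5p arm start, all 3 loci needed 27 bases, 4 beyond the mature end.
Mir9-1: ucuuugguuaucuagcuguaugaGUGG
Mir9-2: ucuuugguuaucuagcuguaugaGUGU
Mir9-3: ucuuugguuaucuagcuguaugaGUGC
With the 3′ end fixed, 1 base added before the 5p arm made Mir9-3 single-locus at 24 bases, while Mir9-1 needed 8 and a read of 31 bases, longer than the labelled size range. The annotated Mir9-2 hairpin held no such extension. Before the 3p arm, Mir9-3 needed 3 added bases, and Mir9-1 and Mir9-2 needed 7 each.

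With starts up to 2 bases either side of the arm start, Mir9-3 had the most single-locus windows at both arms. Of its 60 windows around the 5p start, where the loci were equal at the exact start, 36 were single-locus, against 15 of 60 for Mir9-1 and 15 of 60 for Mir9-2. Around the 3p start the counts were 30 of 60 for Mir9-3, 10 of 60 for Mir9-1 and 4 of 54 for Mir9-2. The deposited counts are per hairpin gene, so the arm and the length of the placed reads were not analysed here.

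**Figure D4:**
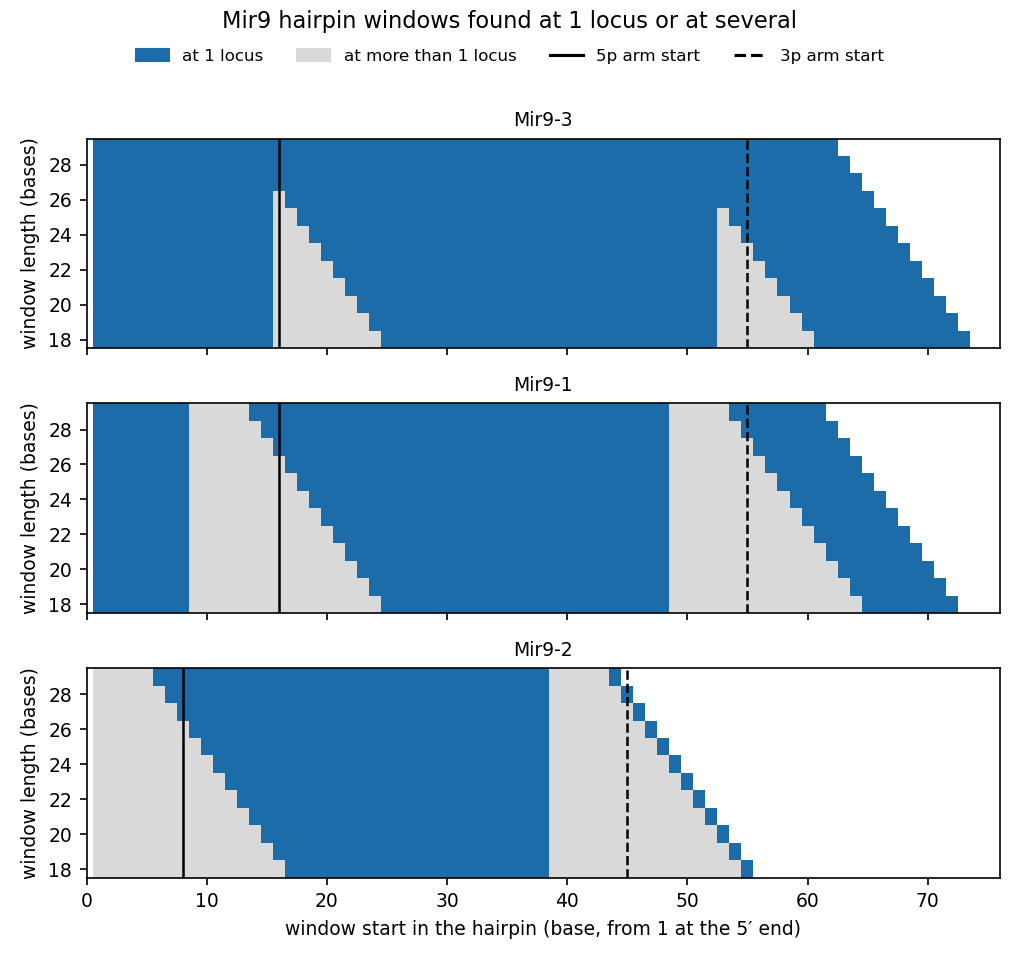
Every window of 18 to 29 bases (vertical axis) by its start in the hairpin (horizontal axis, bases from the 5′ end) for Mir9-3, Mir9-1 and Mir9-2, blue where found at 1 locus and grey where found at several; lines mark the arm starts. In Mir9-3, where 729 of 810 windows are blue, the first grey windows lie at the 5p arm start and 2 bases before the 3p arm start, and in Mir9-1 and Mir9-2 the grey areas reach further upstream.

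The members stood below most other neuronal miRNAs in placed reads. Of 8 listed neuronal miRNAs made from 1 locus, all were detected, from Mir153 at 214 CPM to Mir139 at 115590 CPM, with a median of 3029 CPM. All 8 lay above Mir9-3. Of 12 listed loci of neuronal miRNAs that have further copies, all were detected, from Mir219a-1 at 6.52 CPM to Mir128-1 at 10137 CPM, with a median of 617 CPM. Of these, 8 lay above Mir9-3, among them Mir219a-2 and both copies of the synaptic Mir138 at 5240 ± 1140 and 2756 ± 530 CPM (SD, n = 2). Mir219a-2 is also an oligodendrocyte marker, counted in that list below. Mir219a-1, the lowest here, is its other copy, so the range and median of this list are not of neuronal genes alone. By the exact binomial test, library 1 was the higher for 4 of the 8 single-locus genes and 4 of the 12 multi-copy genes, against a background of 25.2% of all genes tested. Library 2 was the higher for 3 of the 8 and 5 of the 12, against a background of 23.2%. That background holds genes of all depths, and the exact binomial test calls smaller differences at genes with more reads. The listed genes were not compared with others of equal depth. The lists and the members were chosen with these values known, so their difference in level is a description.

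**Figure D5:**
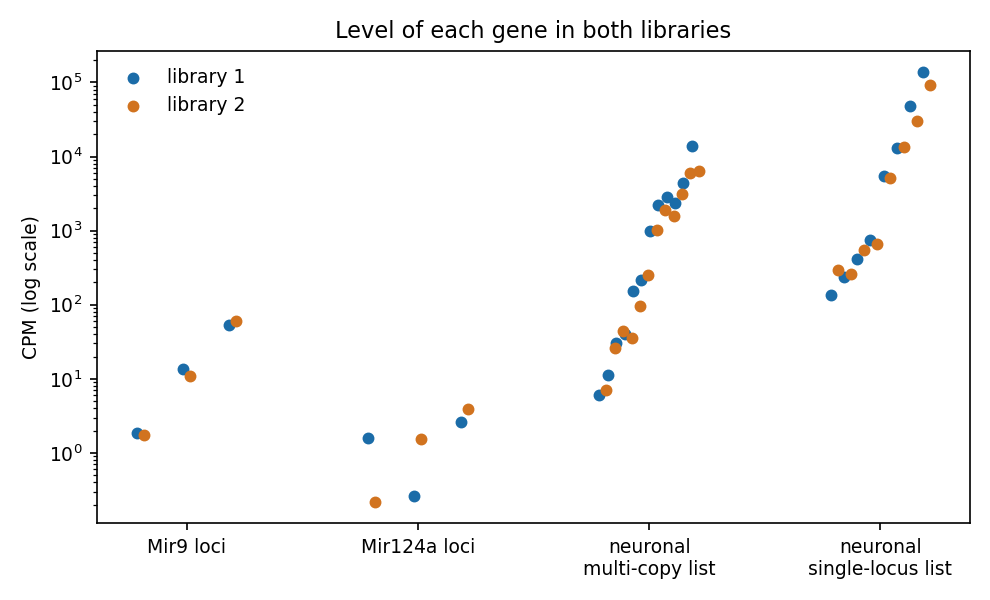
CPM (log axis) of the Mir9 loci, the Mir124a loci and 2 lists of other neuronal miRNA genes in library 1 (blue) and library 2 (orange), each gene drawn as a pair of points. The Mir9 loci lie between 1.76 and 60.6 CPM and the Mir124a loci between 0.220 and 3.95 CPM, below every gene of the single-locus list.

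The number of loci that share an arm was also set beside detection over all genes. RefSeq mature arms could be placed in 1018 of the 2202 hairpins, 3 members (the Mir9 loci) included. Of 926 genes whose arms occur at 1 locus, 319 were detected in both libraries (34.4%), with a median of 112 CPM among the detected. Of 70 genes with an arm at 2 loci, 43 were detected (61.4%), with a median of 125 CPM. Of 22 genes with an arm at 3 or more loci, 2 were detected (9.09%), and these were Mir9-1 and Mir9-3. The Mir124a loci had no RefSeq arm placed, so they are in none of these classes. By the hairpin alone, 1087 genes shared a stretch of 20 bases or more with another locus, all 6 members among them, and 83 of these were detected, against 323 of 1115 without such a stretch. The median level among the detected ran the other way, at 155 CPM with a shared stretch and 79.6 CPM without.

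The genes nearest to a member in level were found by the Euclidean distance of log2(CPM + 1) over the 2 libraries, which with 2 points shows similar level and no shared pattern. Nearest to Mir9-3 were Mir7044 (213 and 283 reads in libraries 1 and 2), Mir7-1 (229 and 289 reads) and Mir8112 (171 and 233 reads), at distances of 0.08 to 0.34. Nearest to Mir124a-1 were Mir7037 (11 and 18 reads), Gm27920 (9 and 17 reads) and Mir106a (8 and 17 reads), at 0.10 to 0.23.

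The tissue label was checked against miRNAs of particular cell types and organs. The neuronal genes above, the oligodendrocyte genes (2 of 2 detected, 4975 and 3461 CPM summed in libraries 1 and 2) and the astrocyte genes (4 of 4, 14342 and 9860 CPM) were present. Microglia and leukocyte genes (3 of 4 detected) summed to 2128 and 1705 CPM, and red blood cell genes (3 of 3) to 134 and 1549 CPM. The red blood cell sum followed Mir451a, at 58.3 and 1419 CPM. Mir144 was also higher in library 2 (24.6 and 96.0 CPM), whereas Mir486 was higher in library 1 (51.0 and 34.7 CPM). Of 6 muscle genes, 5 were at 0 and the sum was 25.3 and 33.6 CPM. Mir1a and Mir133a have more than 1 locus, so their zeros, like the low counts of the members, cannot be read as absence. That limit was not given for Mir133b, the other muscle gene at 0, which is listed as 1 gene. The liver miRNA Mir122 stood at 72.4 and 78.6 CPM and the islet miRNA Mir375 at 132 and 174 CPM, both above Mir9-3 in placed reads.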

How the data were processed

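The authors deposited 1 table per library with raw counts of reads per miRNA gene, not normalized, in mm10 with GENCODE M21 per the file headers and labels. The sources used here do not name the aligner, its version or the trimming of adapters. Each table has a column that ignores strand, a column for each strand and 4 tally rows, which were kept out of library sizes. The members were found through the GENCODE symbols of their identifiers, and column 3, the sense strand, was used. Genes with 10 or more reads in total were tested between the libraries with exact binomial tests (scipy 1.17.1) and Benjamini-Hochberg adjustment at 0.05. Alternatives used edgeR 4.0.16 and DESeq2 1.42.0 in R 4.3.3, under Python 3.11.15. Hairpins came from GENCODE M21 and printed sequences from RefSeq (GRCm38.p6). Genes named are the members, overlapping or host genes, the 3 nearest in level to Mir9-3 and Mir124a-1, and listed neuronal miRNAs. The members and lists were chosen with earlier results of these data known.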

Additional observations from a re-analysis of the deposited data

Results flagged for a closer look

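Some values outside the sense-strand counts exceeded 3 reads, the one-sided limit used here for a count of 0. The tally of reads that align at several places took 41.7% of library 1 and 41.1% of library 2. Gm25641, the gene opposite Mir9-1, had 52 antisense entries in library 1 and 49 in library 2, which are the sense-strand reads of Mir9-1 entered at the overlapping gene.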

How the results depend on the processing

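None of the members tested was called between the libraries under any of the 6 alternatives run (4 tested, 3 in the column that ignores strand, 2 with 50 or more reads and 6 without a filter). Over all genes, edgeR's exact test called 4, against 246 by the exact binomial test, and the other alternatives called 222 to 251. The edgeR test adds a spread estimated from the same libraries that it compares, so it could call few genes. In the column that ignores strand, which drops Mir9-1, the Mir9 loci summed to 63.1 CPM and Mir9-3 took 96.9% of their reads. Per 1000000 of all reads of a library, the Mir9 loci came to 24.3 and the Mir124a loci to 1.75. Leaving out each library in turn gave 68.2 to 73.1 CPM for Mir9, 4.44 to 5.71 CPM for Mir124a, 77.4 to 82.9% for the share of Mir9-3 and 58.8 to 69.2% for that of Mir124a-1. When 1 mismatch was allowed, the mean share of single-locus windows over the 6 hairpins was 58.9%, against 70.6% for exact matches, and Mir124a-3 stood at 34.1%. No paired analysis was possible because the series has 1 group. Depth limits Mir124a-2, Mir124a-3 and Mir9-2 most, where 1 read is 0.261 CPM in library 1 and 0.220 CPM in library 2.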

Other observations

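Besides the Mir9 loci, 19 of the genes with a placed RefSeq arm had one found at 3 or more loci. None of these reached 10 reads in both libraries. The Mir124a loci had no RefSeq arm placed, so they are outside this count. Mir199a-2 and Mir199b had 1 and 2 reads in all, and Mir199a-1 had none. Mir344d-1 had 2 reads in each library, and the remaining members of the Mir344, Mir465, Mir680 and Mir692 groups had none. These genes were named after their values were seen.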
